A study of Mus musculus with 24 samples.

Results

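The 45 genes described here drive or restrain DNA replication and cell division. All 45 symbols were found among the 55487 genes of the deposited count table. They were taken from a named list, and 19 of them were assigned to S phase and its preparation, 23 to mitosis, and 3, Ccnd1, Cdkn1a and Mybl2, to neither. Their RNA was measured by bulk RNA sequencing of kidneys from 24 male mice with X-linked Alport syndrome (XLAS), a hereditary glomerular disease in which a type IV collagen chain encoded by Col4a5 is lost. All mice were on the B6 background and 15 weeks old, and they were either heterozygous (HET, n = 13) or wild type (WT, n = 11) for Nbl1, which encodes a secreted antagonist of bone morphogenetic proteins. The study asked what lower Nbl1 does in the diseased kidney. Batch 2 held 7 HET and 5 WT mice and batch 1 held 6 HET and 6 WT mice, and the labels do not say what a batch was. No kidneys without XLAS were analysed here, so every value comes from diseased tissue. The labels name the Nbl1 and Col4a5 cross, and no source used here gives the alleles.

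Cells copy their DNA in S phase with the MCM helicase, the sliding clamp PCNA and enzymes that make deoxynucleotides, and E2F factors switch on many of these genes at the end of G1. Genes for the spindle, kinetochores and cytokinesis are switched on later, in G2 and mitosis, by complexes that contain B-MYB and FOXM1 and that bind the CHR element (cell cycle genes homology region), often near CCAAT boxes. Most cells of the adult kidney do not divide, and tubule cells, fibroblasts and immune cells can enter the cycle after injury. In bulk tissue, fewer cells of a type and less RNA per cell cannot be told apart.

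Promoters of 36 of the 45 members were matched in RefSeq on GRCm38.p6, as windows of 300 bases with 250 before the gene start and 50 after it. The CHR letters TTTGAA or TTCGAA, on either strand, occurred in 14 of 18 mitotic windows (77.8%) and 3 of 16 S phase windows (18.8%), against 19.4% of the windows of all 27025 genes. The letters CCAAT occurred in 16 of 18 mitotic windows (88.9%) and 10 of 16 S phase windows (62.5%), against 37.9% of all windows. The E2F letters TTTCCCGC, TTTGGCGC, TTTCGCGC or TTTGCCGC occurred in 1 of 18 mitotic windows (5.56%) and 6 of 16 S phase windows (37.5%), against 2.32% of all windows. CHR and CCAAT letters stood together in 14 mitotic and 3 S phase windows, and in 7.7% of all windows, the S phase ones being those of Cdc45, Mcm2 and Mcm7. A match describes letters in a window and not a bound site. The windows of 5 members are shown from 5′ to 3′ on the gene's strand, with every match in capitals. Prc1 (chr7:80294201-80294500, plus strand) and Uhrf1 (chr17:56303087-56303386, plus strand) are shown because they carried the relation to injury given below. Top2a (chr11:99024140-99024439, minus strand) and Cdk1 (chr10:69352863-69353162, minus strand) are mitotic members with both CHR and CCAAT letters, and Mcm6 (chr1:128359656-128359955, minus strand) is an S phase member with E2F letters.
Prc1: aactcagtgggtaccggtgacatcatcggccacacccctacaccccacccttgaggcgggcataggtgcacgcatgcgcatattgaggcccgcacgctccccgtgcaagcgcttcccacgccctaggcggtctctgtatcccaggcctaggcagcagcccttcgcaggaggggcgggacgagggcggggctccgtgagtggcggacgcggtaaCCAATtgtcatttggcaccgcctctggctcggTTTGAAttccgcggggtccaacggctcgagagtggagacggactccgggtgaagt
Top2a: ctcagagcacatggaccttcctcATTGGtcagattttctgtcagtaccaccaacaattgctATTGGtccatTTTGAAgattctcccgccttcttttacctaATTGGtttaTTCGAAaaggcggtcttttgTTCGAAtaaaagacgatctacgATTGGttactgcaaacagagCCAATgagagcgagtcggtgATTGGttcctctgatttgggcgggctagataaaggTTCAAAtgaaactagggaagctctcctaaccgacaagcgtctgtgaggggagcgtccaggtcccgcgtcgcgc
Cdk1: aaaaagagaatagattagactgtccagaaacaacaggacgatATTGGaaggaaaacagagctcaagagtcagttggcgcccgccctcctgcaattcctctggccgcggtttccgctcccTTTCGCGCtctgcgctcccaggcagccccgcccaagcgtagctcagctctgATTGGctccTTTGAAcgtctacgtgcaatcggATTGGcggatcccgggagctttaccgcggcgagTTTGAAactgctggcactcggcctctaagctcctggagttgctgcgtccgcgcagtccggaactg
Uhrf1: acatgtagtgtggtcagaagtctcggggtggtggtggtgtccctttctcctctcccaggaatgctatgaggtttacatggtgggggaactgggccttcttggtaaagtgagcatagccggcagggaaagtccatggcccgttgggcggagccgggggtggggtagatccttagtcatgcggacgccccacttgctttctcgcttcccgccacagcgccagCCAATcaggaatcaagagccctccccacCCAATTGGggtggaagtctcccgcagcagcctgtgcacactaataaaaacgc
Mcm6: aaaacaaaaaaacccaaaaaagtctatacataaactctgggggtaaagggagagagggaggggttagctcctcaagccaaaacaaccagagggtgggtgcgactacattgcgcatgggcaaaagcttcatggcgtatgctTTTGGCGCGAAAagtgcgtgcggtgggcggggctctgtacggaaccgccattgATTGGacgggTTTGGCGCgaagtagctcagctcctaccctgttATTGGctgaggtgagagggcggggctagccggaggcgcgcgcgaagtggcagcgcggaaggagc
Prc1 had 1 CHR and 1 CCAAT match, Top2a had 4 and 6, and Cdk1 had 2 and 3 beside 1 E2F match. Uhrf1 had 3 CCAAT matches, of which 2 overlap on opposite strands, and 0 of the CHR or E2F letters. Mcm6 had 2 CCAAT and 3 E2F matches, of which 2 overlap on opposite strands.

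Each library held 29551337 to 50746652 counts and 23945 to 25361 detected genes. All 45 members passed the filter on low counts, which kept 18339 genes, and their counts lay between 5 and 6785 per library. Deposited counts were not whole numbers in some library for 21 members, 9 of S phase and 10 of mitosis among them, and values for these genes are less certain, since counts shared with similar genes cannot be told apart. Of the members described most closely here, Tyms and Cdkn1a had such counts in 24 libraries, Top2a in 22, Prc1 in 11 and Uhrf1 in 0. The labels were checked against Nbl1 and the adjacent gene Htr6, and 3 libraries of batch 1 did not match them. The library labelled HET replicate 6 had 9.24 CPM of Nbl1 and 0 counts of Htr6, where the other HET libraries of batch 1 had 3.86 to 4.89 CPM and 8 to 39 counts. The libraries labelled WT replicate 1 and WT replicate 2 had 5.41 and 3.62 CPM of Nbl1 with 26 and 14 counts of Htr6, where the other WT libraries of batch 1 had 7.0 to 7.78 CPM and at most 1 count. They stayed in their labelled groups, and results are also given without them. In batch 2 Nbl1 had 4.22 to 7.82 CPM in HET and 7 to 15.1 CPM in WT mice, and Htr6 had 12 to 49 counts in HET and 0 to 2 counts in WT mice.

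Both classes were expressed at low levels, and S phase members stood above mitotic members. In batch 2 the median TPM, a level scaled by gene length and library total and averaged over mice, was 3.21 for the 19 S phase members and 1.22 for the 23 mitotic members. In batch 1 the medians were 1.63 and 0.573 TPM. Levels in TPM are compared here only within a batch, because all 45 members stood lower on that scale in batch 1. The limma fits on log2 TPM given below took in both batches, with batch as a term. In batch 2, 2 S phase and 8 mitotic members lay under 1 TPM, and in batch 1, 5 and 19 did. The most abundant S phase member was Pcna, the sliding clamp of the DNA polymerases, at 31.5 ± 3.25 TPM in batch 2 and 13.6 ± 1.96 TPM in batch 1 (SD, n = 12 each). Mcm7, a subunit of the replicative helicase, had 13.6 ± 1.63 and 6.34 ± 0.985 TPM, and Tyms, which makes thymidylate, had 12.96 ± 2.12 and 8.61 ± 0.819 TPM. In batch 1 Tyms stood above Mcm7, and in batch 2 the means were in the other order. The lowest were Cdc6, which loads the helicase, at 0.375 ± 0.165 and 0.189 ± 0.0722 TPM, and the G1/S cyclin gene Ccne1 at 0.474 ± 0.225 and 0.223 ± 0.168 TPM. The neighbours Mcm7 and Tyms, and Ccne1 and Cdc6, did not differ beyond their spread in batch 2.

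**Figure D1:**
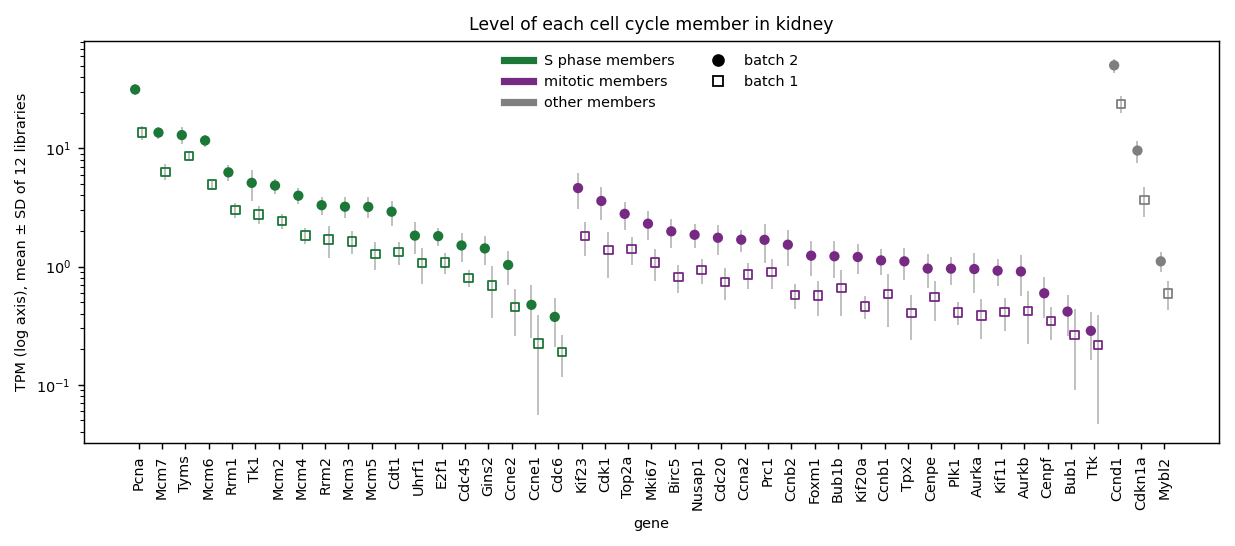
Mean TPM of each member on a log axis, with the SD over the 12 libraries of a batch as bars; filled circles are batch 2, open squares batch 1, and colours give the class. Pcna, Mcm7 and Tyms lead the S phase members, Kif23, Cdk1 and Top2a lead the mitotic members, and Ccnd1 stands above both classes.

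Among mitotic members, Kif23, a motor of the central spindle, was highest at 4.61 ± 1.52 TPM in batch 2 and 1.81 ± 0.58 TPM in batch 1. The mitotic kinase gene Cdk1 had 3.59 ± 1.12 and 1.39 ± 0.592 TPM, and Top2a, which untangles chromosomes, had 2.79 ± 0.740 and 1.41 ± 0.379 TPM. These 3 did not separate beyond their spread in either batch. Mki67, the common proliferation marker, had 2.31 ± 0.625 and 1.082 ± 0.3218 TPM. The spindle checkpoint kinase genes Ttk (0.2858 ± 0.1252 and 0.218 ± 0.171 TPM) and Bub1 (0.416 ± 0.157 and 0.263 ± 0.173 TPM) were lowest. Of the members outside both classes, the G1 cyclin gene Ccnd1 had 50.4 ± 6.67 and 23.7 ± 3.87 TPM, the cell cycle inhibitor gene Cdkn1a (p21) had 9.58 ± 2.02 and 3.67 ± 1.02 TPM, and Mybl2, which encodes B-MYB, had 1.11 ± 0.215 and 0.592 ± 0.162 TPM.

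Across mice, pairs of mitotic members had higher correlations than pairs of S phase members. After genotype and batch means were removed, the median Pearson r over 24 mice was 0.448 for the 253 pairs of mitotic members, 0.247 for the 171 pairs of S phase members and 0.293 for the 437 mixed pairs. All genes of a library share its depth and scaling, so these values are descriptions. The closest pair was Mki67 and Top2a (r = 0.889), followed by Cdk1 with Kif11, a motor that builds the spindle, and Birc5 (survivin, which also guards chromosome segregation) with Tpx2, a spindle assembly factor, both at 0.861. Uhrf1, which brings DNA methylation to newly copied DNA, was grouped with S phase, and its closest members were Top2a (r = 0.847) and Mki67 (0.845). Its median r was 0.576 with mitotic members and 0.473 with S phase members. That order was not particular to Uhrf1 among S phase members. Pcna had 0.476 with mitotic and 0.212 with S phase members, whereas Gins2 had 0.154 and 0.283.

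**Figure D2:**
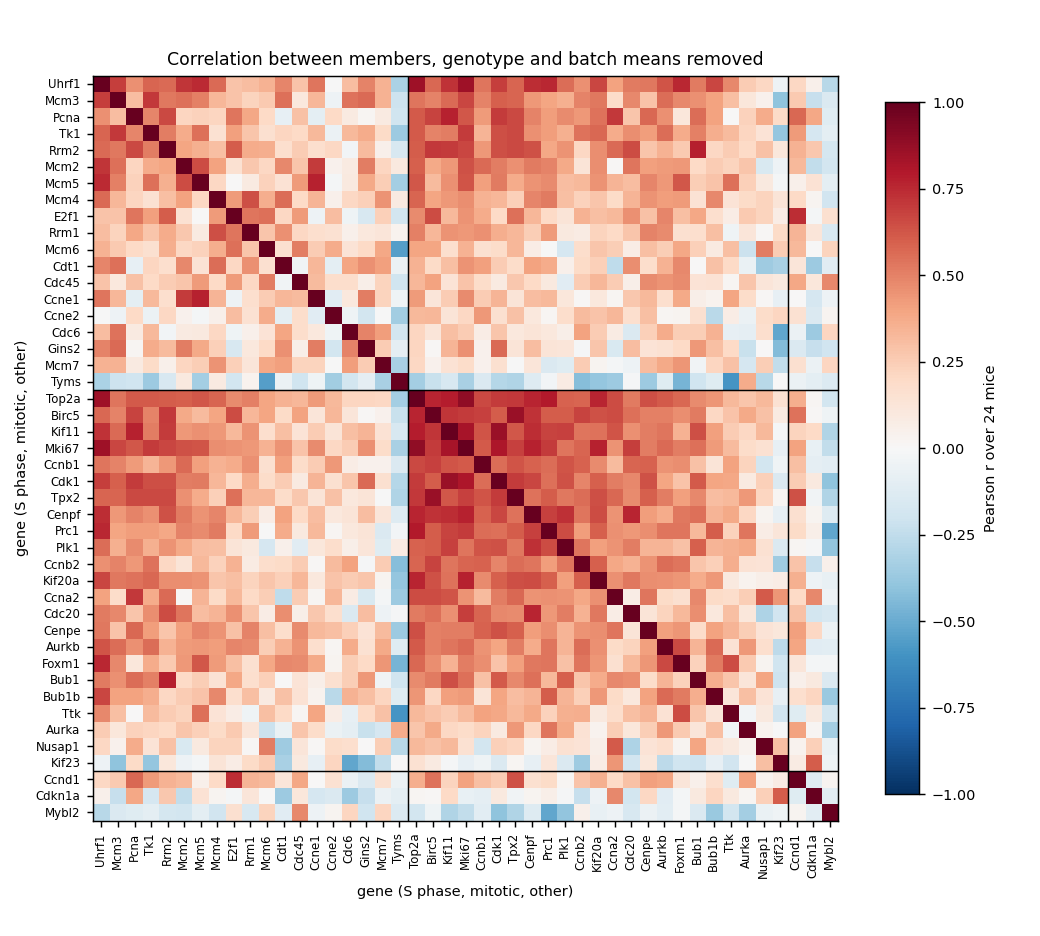
Pearson r between all members over 24 mice after removal of genotype and batch means, with S phase, mitotic and other members separated by lines. A block of positive values joins most mitotic members and extends to S phase members such as Uhrf1, Mcm3 and Pcna. Tyms, Kif23, Nusap1, Cdkn1a and Mybl2 stand outside it.

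Some members had low correlations with their own class. Among S phase members, the median r with that class was -0.19 for Tyms and -0.0044 for Ccne2. Among mitotic members, it was -0.06 for Kif23 and 0.14 for Nusap1, a microtubule-bundling protein gene. Of the genes outside both classes, Mybl2 had a median r of -0.14 and Cdkn1a of 0.02 with mitotic members. The mean log2 CPM (counts scaled to the library total) of the S phase members correlated with that of the mitotic members at r = 0.776, at 0.729 within batch 2 and 0.846 within batch 1.

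Relation to injury was read against a score, the mean log2 CPM of 7 tubular injury genes, namely Havcr1, Lcn2, Krt20, Vcam1, Spp1, Clu and Sox9. None of the 45 members belongs to the score. It ran from 4.76 to 5.61 in HET and from 4.68 to 5.83 in WT mice of batch 2, and from 4.60 to 5.50 in HET and from 4.61 to 5.41 in WT mice of batch 1. The genotypes overlapped widely, and over all mice the score spanned 1.23 log2 units. Slopes below are log2 changes in CPM per unit of the score, with batch and genotype in the model.

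Uhrf1 of the S phase class and Prc1 of the mitotic class rose with injury, and the other 43 members did not pass the test, edgeR's quasi-likelihood test with Benjamini-Hochberg adjustment over all genes tested. Thus 2 of 45 members passed, against 1.42% of all genes (260 of 18332) in either direction and 1.17% with a higher level. All 23 mitotic members had a positive slope, with a median of 0.35, and 15 of 19 S phase members did, with a median of 0.13. Among all genes 43.6% had a positive slope and the median was -0.02. At an unadjusted p under 0.05 there were 9 mitotic and 4 S phase members, against 13% of all genes. DESeq2's Wald test called 6 of the 43 members that it gave an adjusted p, against 3.47% of genes, adding Top2a, Bub1b, Cenpe and Foxm1. On log2 TPM, limma called 0 members with either pseudocount, against 0.9% of genes with 0.1 and 1.21% with 1.

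Uhrf1 (ENSMUSG00000001228, chromosome 17, 56303321 to 56323486, plus strand, on GRCm38) had 2.89 to 5.26 CPM (median 4.43) in HET mice and 2.94, 3.26, 4.44, 5.7 and 5.81 CPM in WT mice of batch 2. In batch 1 it had 2.43 to 5.22 CPM (median 4.54) in HET mice and 3.22 to 4.85 CPM (median 4.12) in WT mice. The genotypes overlapped, and the highest value of all, 5.81 CPM, was in WT replicate 9, which also had the highest injury score. Its slope was 0.68 with a standard error of 0.14 (edgeR adjusted p = 0.0101). Leaving out any 1 of the 24 libraries kept the slope past the threshold, at 0.64 to 0.77. The call of Uhrf1 ended without the 2 mice farthest from the median score, WT replicate 9 and HET replicate 8 (slope 0.68, edgeR adjusted p = 0.0678), with Lcn2 alone as the injury measure (0.50, edgeR adjusted p = 0.0818) and on log2(TPM + 1) (0.45, limma adjusted p = 0.0846) or log2(TPM + 0.1) (0.73, limma adjusted p = 0.118). Within batch 2 the slope was 0.82 (SE 0.15, edgeR adjusted p = 0.0525), and within batch 1 it was 0.49 (SE 0.26, edgeR adjusted p = 0.652).

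**Figure D3:**
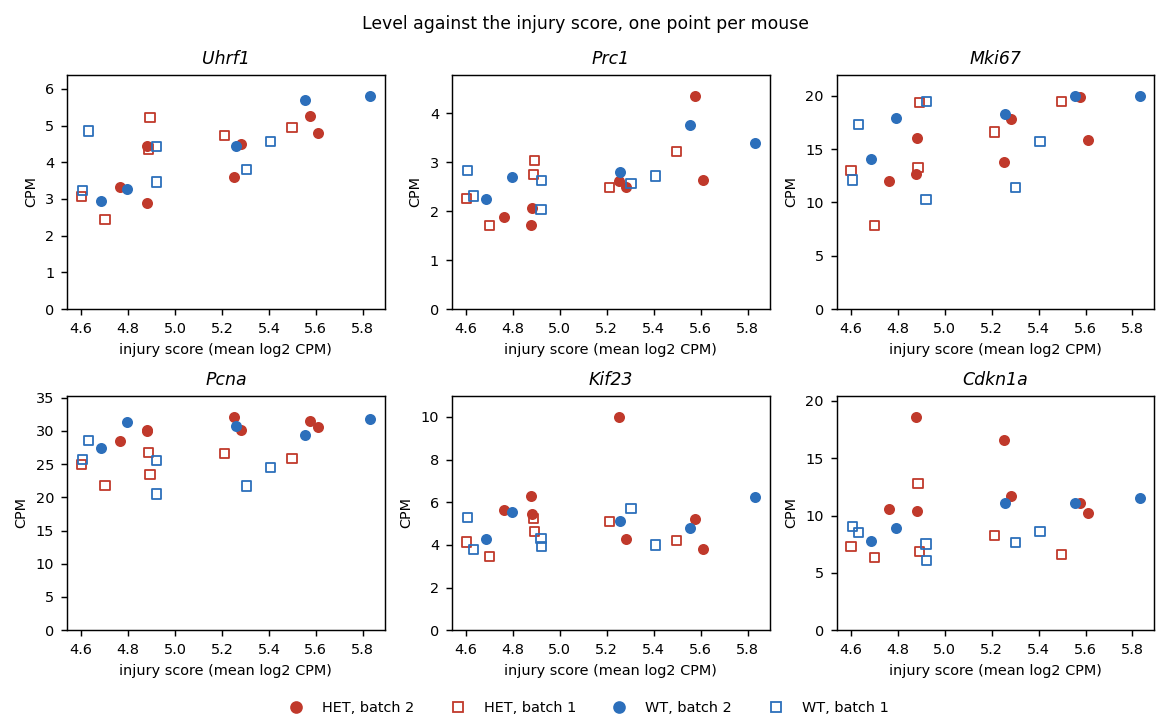
CPM of 6 members in each of 24 mice against the injury score (mean log2 CPM of 7 genes); red is HET, blue is WT, filled circles are batch 2 and open squares batch 1. Uhrf1 and Prc1 are higher in mice with higher scores, most evenly in batch 2, whereas Kif23 and Cdkn1a have r of 0.03 and 0.06 with the score over all mice.

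Prc1 (ENSMUSG00000038943, chromosome 7, 80294450 to 80316259, plus strand), which bundles the microtubules of the central spindle, had 1.71 to 4.36 CPM (median 2.5) in HET mice and 2.26, 2.71, 2.8, 3.4 and 3.76 CPM in WT mice of batch 2. In batch 1 it had 1.71 to 3.23 CPM in HET mice and 2.04 to 2.84 CPM in WT mice. The genotypes overlapped in both batches, and HET replicate 13 stood well above the other HET mice of batch 2. The slope of Prc1 was 0.61 with a standard error of 0.15 (edgeR adjusted p = 0.0354). It was 0.79 within batch 2 (SE 0.19, edgeR adjusted p = 0.14) and 0.36 within batch 1 (SE 0.24, edgeR adjusted p = 0.752). The call of Prc1 ended when any 1 of 8 libraries was left out, namely HET replicates 1, 2, 10, 11, 12 and 13 and WT replicates 8 and 9, with edgeR adjusted p of 0.0505 to 0.0919. The slope was 0.51 to 0.68 over all 24 such fits. The call also ended without the 2 mice farthest from the median score (0.70, edgeR adjusted p = 0.0684) and with Lcn2 alone (0.39, edgeR adjusted p = 0.221). It ended too with a fibrosis score in place of injury (0.88, edgeR adjusted p = 0.0816) and with a T cell covariate (0.56, edgeR adjusted p = 0.088). Prc1 did not pass on log2(TPM + 1) (0.47, limma adjusted p = 0.0602) or log2(TPM + 0.1) (0.75, limma adjusted p = 0.102). Without WT replicate 2, 4 members and 253 genes passed, without WT replicate 3, 4 members and 315 genes, and without WT replicate 5, 5 members and 285 genes. Without the 3 libraries that did not match their labels, Uhrf1 (slope 0.71), Prc1 (0.64) and Top2a (0.50) passed. The share of all genes that passed in that fit is not given here, so the added call of Top2a is not read as particular to the members.

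The other mitotic members with the smallest p were Top2a, with a slope of 0.47 (SE 0.13, edgeR adjusted p = 0.0611), the checkpoint gene Bub1b at 0.42, the kinetochore motor gene Cenpe at 0.46, Foxm1, which encodes the mitotic transcription factor, at 0.51, and the kinetochore gene Cenpf at 0.40. Top2a had 5.69 to 9.92 CPM (median 7.18) in HET and 5.65, 8.02, 8.45, 8.47 and 10.8 CPM in WT mice of batch 2, and 5.01 to 9.15 CPM in HET and 5.72 to 9.33 CPM in WT mice of batch 1. Mki67 had a slope of 0.43 (SE 0.18, edgeR adjusted p = 0.281), with 12 to 19.9 CPM in HET and 14.1 to 20 CPM in WT mice of batch 2, and 7.84 to 19.5 CPM in HET and 10.3 to 19.5 CPM in WT mice of batch 1. For both genes the genotypes overlapped in each batch. The remaining mitotic members ran from Ttk (0.51) and Aurkb (0.51), a kinase of chromosome segregation, through Cdk1 (0.43), Kif11 (0.35), Kif20a (0.35), the B-type cyclin genes Ccnb1 (0.30) and Ccnb2 (0.29), Plk1 (0.28) and Tpx2 (0.21) to Aurka (0.15), Cdc20 (0.15), Birc5 (0.11), Ccna2 (0.11), Bub1 (0.09), Kif23 (0.05) and Nusap1 (0.03).

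**Figure D4:**
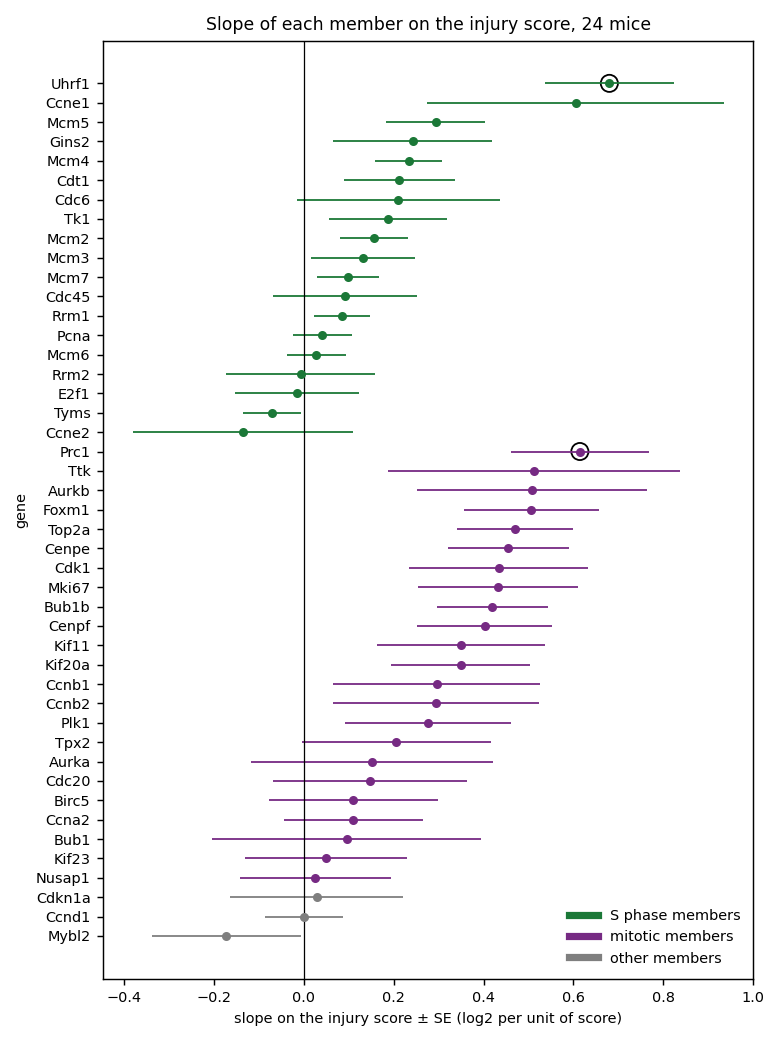
Slope of each member on the injury score with its standard error, from the fit of 24 mice with batch and genotype as terms; black rings mark the members that passed. All 23 mitotic slopes lie right of 0, and S phase slopes other than those of Uhrf1 and Ccne1 stay under 0.3.

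The S phase members apart from Uhrf1 did not pass. The helicase subunit genes Mcm4 (0.23, SE 0.07, edgeR adjusted p = 0.115), Mcm5 (0.29) and Mcm2 (0.16) had the smallest p, followed by Ccne1 (0.61, SE 0.33), whose counts were few, and Cdt1 (0.21), a helicase loading factor. Mcm4 had 8.61 to 10.9 CPM in HET and 8.97 to 11.4 CPM in WT mice of batch 2, and 7.77 to 10.1 CPM in HET and 7.43 to 10 CPM in WT mice of batch 1. The slope of Pcna was 0.04 (SE 0.07), and its level was close among mice of a batch, at 28.5 to 32.1 CPM in HET and 27.4 to 31.8 CPM in WT mice of batch 2 and 21.8 to 26.8 CPM in HET and 20.5 to 28.5 CPM in WT mice of batch 1. Positive slopes were also those of Gins2 (0.24), a subunit of the replicative helicase complex, Cdc6 (0.21), the thymidine kinase gene Tk1 (0.19), Mcm3 (0.13), Mcm7 (0.10), Cdc45 (0.09), the ribonucleotide reductase gene Rrm1 (0.09) and Mcm6 (0.03). The slopes of Rrm2 (-0.01), the transcription factor gene E2f1 (-0.02), Tyms (-0.07) and the cyclin gene Ccne2 (-0.14) were below 0. Outside both classes, Cdkn1a stood at 0.03 (SE 0.19), Ccnd1 at 7.8e-05 (SE 0.09) and Mybl2 at -0.17 (SE 0.17). None of these passed.

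Within batches no member passed, against 0.0545% of genes in batch 2 and 0.12% in batch 1 by edgeR's quasi-likelihood test. At an unadjusted p under 0.05 there were 16 members in batch 2, against 8.33% of genes, and 0 in batch 1, against 8.49%. DESeq2's Wald test called 5 of the 43 members that it gave an adjusted p in batch 2, against 1.08% of genes. In batch 1 it called 0 of 36, against 0.807%. The mitotic median slope was 0.45 in batch 2, with 23 of 23 positive, and 0.20 in batch 1, with 16 of 23 positive. The S phase medians were 0.20 and 0.08, with 17 and 12 of 19 positive. Among all genes, 48.3% were positive in batch 2 and 50.7% in batch 1. Whether the slopes differ between batches was not tested.

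Correlations over the 24 mice, with batch means removed and the score permuted 100000 times within batch, were computed for all 45 members. Uhrf1 had r = 0.717 (permutation p = 0.00022, adjusted over 18339 genes 0.0297) and rho = 0.728 (permutation p = 0.00013, adjusted 0.0185). Without the 2 mice farthest from the median score r was 0.669, and it was 0.884 within batch 2 and 0.504 within batch 1. Bub1b had r = 0.68 (permutation p = 0.00063, adjusted 0.0496) and rho = 0.702 (permutation p = 0.00043, adjusted 0.0334), with 0.609 without the 2 mice, 0.883 within batch 2 and 0.287 within batch 1. Prc1 had r = 0.66 (permutation p = 0.00086, adjusted 0.0578) and rho = 0.594 (permutation p = 0.00382, adjusted 0.0987), with 0.659 without the 2 mice, 0.767 within batch 2 and 0.466 within batch 1. Among all genes, 1.27% passed by r and 1.96% by rho. The median r was 0.294 for S phase and 0.332 for mitotic members, and 40 of 45 members had r above 0. Over all 18339 genes the median r was -0.0432 and 7994 genes had r above 0. Within batch 2 the medians were 0.448 for S phase and 0.543 for mitotic members, and within batch 1 they were 0.214 and 0.25. Pcna had r = 0.57 within batch 2 and -0.10 within batch 1.

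Macrophage genes rose with the same score. Of 10 macrophage markers, all detected, 8 passed the slope test, and their summed level was 183.2 to 300.5 CPM in HET and 188.7 to 316.4 CPM in WT mice of batch 2, and 140.8 to 222.5 CPM in HET and 142.4 to 209 CPM in WT mice of batch 1. The mean log2 CPM of these markers correlated with the injury score at r = 0.793, with the S phase mean at 0.711 and with the mitotic mean at 0.682. With that mean as a further covariate, 2 genes and 0 members passed, the mitotic median slope was 0.03 and the S phase median was -0.09. Uhrf1 then had a slope of 0.14 (edgeR adjusted p = 0.982) and Prc1 of 0.43 (edgeR adjusted p = 0.938). Among other lists, 2 of 8 fibroblast markers passed, and 0 passed of 10 T cell, 10 B and plasma cell, 8 endothelial, 8 proximal tubule, 7 erythroid and 8 podocyte markers. Which cells carried the members' RNA was not tested.

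Wider lists of cell cycle genes were tested on the same score. Among all genes by edgeR, 43.6% had a positive slope, 13% had an unadjusted p under 0.05 and 1.42% passed. Of 37 further mitotic genes tested, 36 had a positive slope, with a median of 0.27, and 0 passed, though 9 had an unadjusted p under 0.05. The smallest p were those of Anln, a scaffold of the cytokinetic ring (slope 0.50, edgeR adjusted p = 0.0907), Racgap1, the partner of Kif23 (0.35), and the kinetochore gene Knl1 (0.53). Of 28 further S phase genes, 17 had a positive slope, with a median of 0.09. Lig1, the replicative DNA ligase gene (0.40), and Pole, a DNA polymerase gene (0.30), had positive slopes and did not pass. Of 23 G1 control genes 0 passed and 4 had an unadjusted p under 0.05, with E2f8 at 0.69, Tob1 at -0.42 and Cdk4 at 0.12. Of 17 p53 target genes 0 passed and 2 had an unadjusted p under 0.05, with Eda2r at 0.61, Bbc3 at 0.59 and Fas at 0.21. DESeq2 called 1 of these mitotic, 0 G1 control and 0 p53 target genes, against 3.47% of all genes. Limma on log2(TPM + 1) called 0 of each, against 1.21% of all genes.

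No member differed between HET and WT mice past the threshold, in all mice or in either batch. Over all mice 0 of 45 members passed by edgeR's quasi-likelihood test, by DESeq2's Wald test or by limma on log2 TPM, against 0% of 18339 genes by edgeR, and 0 members had an unadjusted p under 0.05 by edgeR, where 4.12% of all genes did. The mitotic median log2 fold change was -0.10, with 1 of 23 members positive, and the S phase median was -0.01, with 8 of 19 positive. Among all genes 56.3% were positive. Without the 3 libraries that did not match their labels the medians were -0.18 and -0.05, and 0 members passed.

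The smallest p over all mice were those of Cdc6, Birc5, Plk1, Rrm1 and Cdc45. Cdc6 averaged 0.659 ± 0.13 CPM in HET and 0.807 ± 0.21 CPM in WT mice (SD, n = 13 and 11), a log2 fold change of -0.30 (SE 0.15, edgeR unadjusted p = 0.0649). Birc5 averaged 1.16 ± 0.22 and 1.36 ± 0.31 CPM (log2 -0.24), Plk1, a kinase of mitotic entry, 1.18 ± 0.31 and 1.36 ± 0.28 CPM (-0.23), Rrm1 15.2 ± 0.985 and 16.1 ± 1.1 CPM (-0.07), and Cdc45, a helicase cofactor, 1.70 ± 0.29 and 1.92 ± 0.28 CPM (-0.18), each for HET and then WT mice. Permutation of genotype within batch gave a p of 0.0656 for Cdc6, 0.0709 for Birc5, 0.0667 for Plk1, 0.0884 for Rrm1 and 0.0831 for Cdc45. All 5 edgeR adjusted p were 0.997.

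In batch 2, 0 members passed, against 0.00545% of genes, and 4 had an unadjusted p under 0.05 by edgeR's quasi-likelihood test, where 8.34% of all genes did. Mitotic members had a median of -0.20, with 1 of 23 positive, and S phase members had a median of -0.07, with 5 of 19 positive, where 50.3% of all genes were. DESeq2's Wald test called 0 of the 34 members that it gave an adjusted p, against 0.19% of 13703 genes. Aurka, a kinase of spindle poles, had 0.57, 0.59, 0.747, 0.852, 0.985, 1.25 and 1.28 CPM in HET mice and 1.19, 1.31, 1.38, 1.53 and 1.74 CPM in WT mice. Only 2 HET mice reached the WT range. The log2 fold change was -0.68 (SE 0.21, edgeR unadjusted p = 0.00505, adjusted 0.539, exact permutation p = 0.0101). Rrm2, the regulated subunit of ribonucleotide reductase, had 3.94 to 4.75 CPM in HET and 3.83, 5.09, 5.12, 5.28 and 5.85 CPM in WT mice, a log2 fold change of -0.23 with an exact permutation p of 0.0707. WT replicate 7 lay below all HET mice, so the groups overlapped. The other 2 with an unadjusted p under 0.05 were Kif11 (-0.32) and Mcm7 (-0.14).

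**Figure D5:**
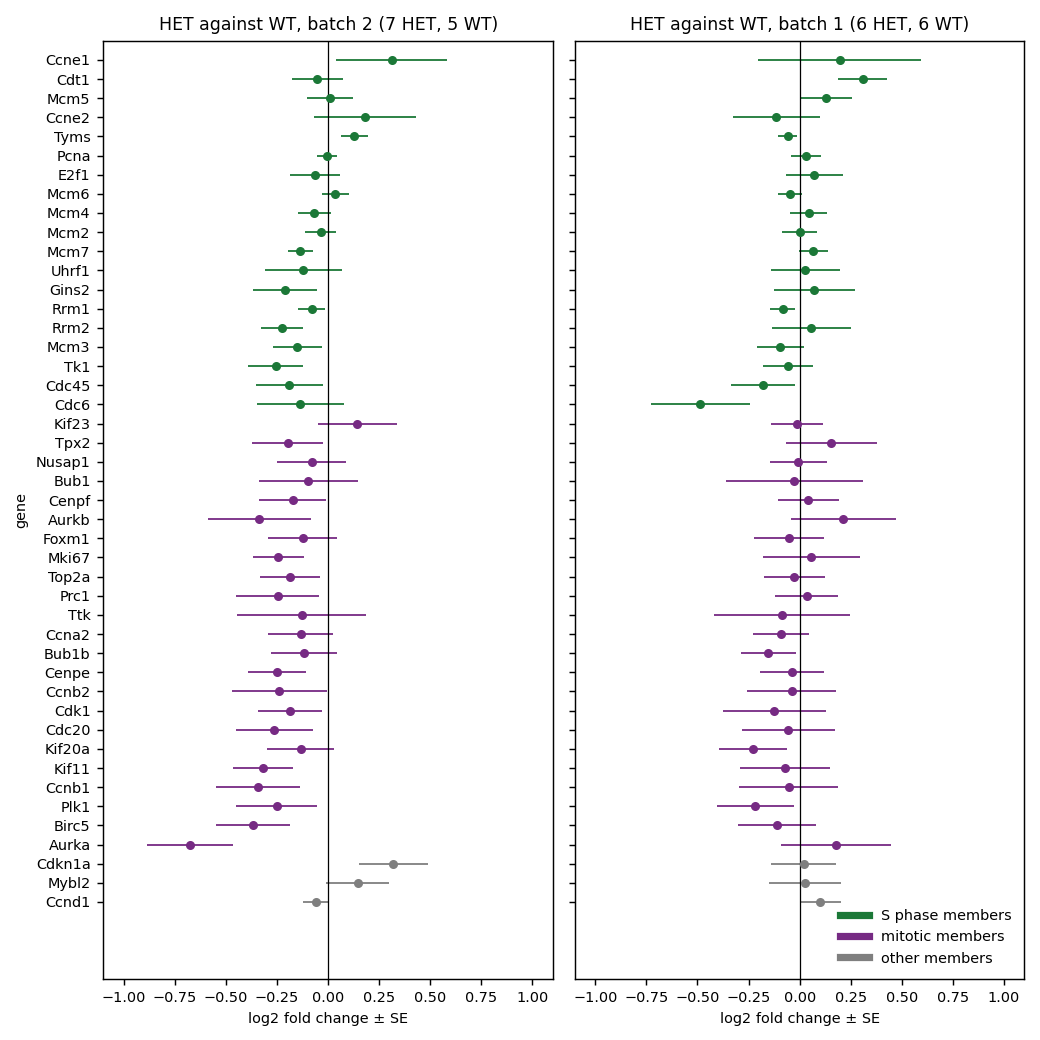
Log2 fold change of each member between HET and WT mice with its standard error, in batch 2 on the left (7 HET, 5 WT) and batch 1 on the right (6 HET, 6 WT). Aurka lies farthest left in batch 2 at -0.68 and right of 0 in batch 1, and 0 members passed in either panel.

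In batch 1, 0 members passed, against 0% of genes, and 1 had an unadjusted p under 0.05 by edgeR's quasi-likelihood test, where 2.78% of all genes did. Mitotic members had a median of -0.04, with 6 of 23 positive, and S phase members one of 0.03, with 11 of 19 positive, where 50.7% of all genes were. DESeq2's Wald test also called 0 of 45 members, against 0.00546% of 18322 genes. Without the 3 libraries that did not match their labels, the medians were -0.12 and -0.07 and 0 members passed. Cdt1 had 3.23 to 4.76 CPM (median 3.99) in HET and 2.96 to 3.53 CPM (median 3.14) in WT mice, a log2 fold change of 0.31 (SE 0.12, edgeR adjusted p = 1, exact permutation p = 0.0216). In batch 2 it stood at -0.05, and the interaction had an unadjusted p of 0.0512. Cdc6 had 0.41 to 0.777 CPM in HET and 0.484 to 1.09 CPM in WT mice, a log2 fold change of -0.49 with an exact permutation p of 0.0563. Aurka stood at 0.18 in batch 1. Its interaction with batch was -0.84 (SE 0.34, edgeR unadjusted p = 0.0217, adjusted 0.576).

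The test of the difference between batches gave 0 members, against 0% of genes, by edgeR and by DESeq2, and 2 members, Tyms and Aurka, at an unadjusted p under 0.05 by edgeR, where 8.2% of all genes were. In neither batch did any member's HET and WT values separate without overlap, against 0.551% of genes in batch 2 and 0.0872% in batch 1. For the remaining genes of the list, Mki67 stood at -0.24 in batch 2 and 0.06 in batch 1, Top2a at -0.19 and -0.03, Pcna at -0.0049 and 0.03, Ccnd1 at -0.06 and 0.10 and Cdkn1a at 0.32 and 0.02. Cdkn1a had 10.2 to 18.6 CPM (median 11.1) in HET and 7.74, 8.88, 11.1, 11.1 and 11.5 CPM in WT mice of batch 2, where HET replicates 9 and 12 were high, and 6.31 to 12.8 CPM in HET and 6.08 to 9.07 CPM in WT mice of batch 1. In the wider lists, 0 genes passed over all mice, against 0% of all genes. An unadjusted p under 0.05 by edgeR was reached by 1 of 28 S phase genes (Gmnn, 0.18) and 0 of 37 mitotic genes. It was also reached by 1 of 23 G1 control (Cdkn1c, -0.13) and 0 of 17 p53 target genes, against 4.12% of all genes. Next in each list by p were Pold1 (-0.12), Knl1 (-0.26) and Kif15 (-0.25), Btg2 (0.55), and Tnfrsf10b (0.12) with Zmat3 (0.07).

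Between batches, 14 members were higher in batch 2 and 1 was lower by edgeR, 15 in all, against 32.6%, 30.9% and 63.5% of all genes. Tyms averaged 14.8 ± 1.30 CPM in batch 2 and 36.3 ± 2.15 CPM in batch 1 (SD, n = 12 each), with no overlap, a log2 fold change of -1.30 (SE 0.04, edgeR adjusted p = 8.65e-21). On the TPM scale its sign turned, to 0.52. There limma on log2(TPM + 1) called 44 of 45 members, against 92.7% of all genes, and all 45 members stood lower in batch 1. Mcm6 averaged 24.25 ± 1.92 and 19.02 ± 1.26 CPM (log2 0.35) and Pcna 30.3 ± 1.38 and 24.65 ± 2.39 CPM (0.30), in batch 2 and then batch 1. The share of members called, 15 of 45, was under the share of all genes, and batch was a term in each fit over all mice.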

How the data were processed

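Kidneys of 24 mice were profiled by RNA sequencing, with a NucleoMag RNA kit, RNA integrity above 8 and KAPA mRNA HyperPrep libraries, per the labels' protocols. Reads were handled with fastp, STAR and featureCounts against GRCm38 (mm10), per the submitters' processing notes; no source used here gives their versions, the annotation or the strand setting. The authors deposited expected counts for each library, with TPM and FPKM. The expected counts were not whole for 11.8% to 15.4% of genes per library and were rounded. TPM served for levels and, as log2(TPM + 1) or log2(TPM + 0.1), for limma alternatives; the deposited FPKM, whose library sums were 693457 to 751757 for batch 2 and 1417698 to 1752387 for batch 1, was not tested.

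Genes were kept by filterByExpr (minimum count 10), which left 18339 genes with 99.9% of the counts, scaled by TMM and tested by the quasi-likelihood test of edgeR 4.0.16 in R 4.3.3, with batch as a covariate where both batches entered and p-values adjusted by Benjamini-Hochberg at 0.05. The 7 genes of the injury score (prior count 2) were left out of slope counts, so 18332 remained. DESeq2 1.42.0 and limma 3.58.1 were alternatives, with other injury measures, other covariates and each library left out. Single genes were compared by exact two-sided permutation within a batch, or by 100000 permutations within batch. All tests were two-sided. The procedure was also run on simulated counts, drawn for each gene apart and without a batch effect, and the outcome is not used here. Replicate numbers follow the order of deposition and pair nothing, and all 61 pairs of libraries within a group of 1 batch differed beyond sampling noise. Nothing in the labels ties a library to more than 1 mouse. Coordinates are those of GENCODE M21.

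The members, classes and lists were chosen with earlier results of these data known. Named are Mki67, Top2a, Ccnd1, Cdkn1a and Pcna; in each class the 3 highest and 2 lowest by TPM and the 6 of smallest slope p, with all members that missed that threshold; the 5 of smallest p for HET against WT over all mice and the 2 in each batch; 3 genes by slope and 2 by HET against WT in each wider list; and the 10 genes most like each class mean. A gene that this rule names in the wider S phase list is not reported here.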

Additional observations from a re-analysis of the deposited data

Results flagged for a closer look

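Single mice stood apart from the rest of their genotype and batch for 6 of the 188 groups of values examined by Dixon's criterion at 95%, where chance gives about 1 in 20. Prc1 was 4.36 CPM in HET replicate 13 of batch 2, the next value being 2.63 CPM, and this mouse had a high injury score of 5.58. Kif23 was 10 CPM in HET replicate 9 of batch 2, the next being 6.31 CPM, and this was also a mouse of high Cdkn1a (16.6 CPM). Cdkn1a was 12.8 CPM in HET replicate 5 of batch 1, the next being 8.27 CPM. Cdc20, which activates the anaphase-promoting complex, was 2.11 CPM in the library labelled WT replicate 1 of batch 1, the next being 1.6 CPM. In WT replicate 7 of batch 2, the lowest value of Ccna2, a cyclin of S phase and G2, was 1.84 CPM, the next being 3.33 CPM, and that of Nusap1 was 2.69 CPM, the next being 4.25 CPM. That mouse had the lowest injury score of its batch, 4.68.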

How the results depend on the processing

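No paired analysis was possible because the labels carry no replicate numbers, and the numbers used here follow the order of deposition. HET against WT called 0 members under every alternative run. Leaving out each library in turn gave 0 genes over all mice and in batch 1, and 1 to 3 genes in batch 2 (2 without HET replicate 7 or 8 or WT replicate 9, and 3 without HET replicate 10). DESeq2 called 1 gene in batch 1 and 26 in batch 2. Without the 3 libraries that did not match their labels, a setting chosen after seeing the data, HET against WT gave 2 genes over all mice and 2 in batch 1. The slope on injury over all mice called 1 to 5 members and 133 to 421 genes with 1 library left out (133 without HET replicate 1, 155 without HET replicate 10, 152 without WT replicate 11 and 421 without HET replicate 9). Such fits gave 0 members and 7 to 38 genes in batch 1, and 0 to 1 members (1 without HET replicate 9 or 11) and 5 to 55 genes in batch 2. DESeq2 called 6 members and 574 genes over all mice, 122 genes in batch 1, and 5 members and 171 genes in batch 2. Lcn2 alone as the injury measure, limma on log2(TPM + 1) and limma on log2(TPM + 0.1) each called 0 members. The limma fits called 222 and 165 genes. The fibrosis score in place of injury called 604 genes, with Uhrf1, Mki67 and Top2a among them. Without the 2 mice farthest from the median score, WT replicate 9 and HET replicate 8, 0 members and 106 genes were called. With a T cell covariate, chosen after seeing the data, 1 member was called, and without the 3 libraries batch 1 gave 36 genes. Some of these fits held fewer samples, and the cause of the differences was not tested.

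With the macrophage covariate, which called 0 members and 2 genes, the S phase median slope was -0.0854 and slopes changed sign to -0.349 for Mcm3, -0.0854 for Mcm6, -0.0933 for Pcna, -0.184 for Cdc45, -0.31 for Cdc6, -0.0846 for Cdt1, -0.103 for Gins2, 0.0212 for Tyms, -0.144 for Tk1, -0.203 for Mki67, -0.357 for Birc5, -0.0328 for Cdk1, -0.444 for Ccnb1, -0.49 for Ccnb2, -0.643 for Bub1, -0.174 for Aurkb, -0.493 for Cdc20, -0.11 for Kif11, -0.114 for Kif20a, -0.328 for Tpx2 and -0.196 for Ccnd1. With Lcn2 alone they did so to -0.0304 for Pcna, -0.0539 for Ccna2, -0.101 for Bub1, -0.0422 for Kif23, -0.0631 for Nusap1, -0.015 for Ccnd1, -0.102 for Cdkn1a and 0.0488 for Mybl2, and with Havcr1 alone to -0.0432 for Kif23, -0.0478 for Nusap1 and -0.119 for Cdkn1a. The fibrosis score gave 0.0816 for Ccne2, 0.637 for Rrm2, 0.372 for E2f1 and -0.306 for Kif23. The T cell covariate gave -0.0904 for Bub1 and -0.0234 for Ccnd1, and leaving out the 2 farthest mice gave -0.153 for Bub1 and -0.0400 for Ccnd1. DESeq2 and its size factors in edgeR gave -0.00217 and -0.00221 for Ccnd1, and no filter gave 0.0087 for Rrm2. Limma on log2(TPM + 1) gave 0.00279 for Ccne2, 0.126 for Rrm2, 0.0803 for E2f1 and 0.063 for Tyms, and on log2(TPM + 0.1) 0.157 for Rrm2, 0.114 for E2f1 and 0.0676 for Tyms. For HET against WT over all mice the same fits gave -0.00952 for Ccnd1 and -0.025 for Pcna, and -0.00767 for Ccnd1 and -0.0238 for Pcna. For batch 2 against batch 1 the first gave 0.525 for Tyms and called 44 members, against 92.7% of all genes. Without the 3 libraries, HET against WT was -0.0185 for Ccnd1 and -0.0032 for Pcna over all mice and, in batch 1, -0.00701 for Mki67 and -0.0384 for Cdkn1a and -0.0673 for the S phase median, and slopes were 0.0142 for Rrm2 and 0.00168 for E2f1. With 1 library left out, the values that changed sign in some fit ranged, for HET against WT over all mice, from -0.041 to 0.0118 for the S phase median, -0.0161 to 0.0423 for Ccnd1 and -0.012 to 0.0375 for Pcna; in batch 2, from -0.0368 to 0.0155 for Pcna; in batch 1, from -0.0565 to 0.0521 for the S phase median, -0.100 to 0.0486 for the mitotic median, -0.0361 to 0.184 for Mki67, -0.0997 to 0.0608 for Top2a, -0.159 to 0.0781 for Cdkn1a and -0.0156 to 0.0755 for Pcna. For slopes the ranges were, over all mice, -0.00629 to 0.0662 for Mcm6, -0.0996 to 0.0725 for Rrm2, -0.0461 to 0.0704 for E2f1, -0.0372 to 0.177 for Ccna2, -0.128 to 0.259 for Bub1, -0.0238 to 0.142 for Kif23, -0.104 to 0.124 for Nusap1, -0.0301 to 0.0665 for Ccnd1 and -0.0789 to 0.141 for Cdkn1a; in batch 2, -0.0371 to 0.0777 for Ccnd1; in batch 1, -0.145 to 0.101 for Ccnd1, -0.207 to 0.076 for Cdkn1a and -0.104 to 0.0449 for Pcna. Many of these values lay near 0, but not all. With the macrophage covariate Bub1 reached -0.643 and Cdc20 -0.493, and with the fibrosis score Rrm2 reached 0.637. Over the fits with 1 library left out, 85 of 2040 values changed sign. The 2040 include counts of calls, which cannot change sign. Under other alternatives, 63 of 783 values of single members and class medians changed sign, with counts of calls left out. The mitotic median slope was above 0 in every alternative run, though many mitotic slopes were below 0 with the macrophage covariate. Depth limits the members of lowest counts, such as Ccne1, Ttk and Cdc6.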

Other observations

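The 10 genes whose level followed each class mean most closely were chosen by Pearson r over the 24 mice, with batch means removed. For the mitotic mean these were Racgap1 (r = 0.849), the spindle gene Aspm (0.828), the hyaluronan receptor and spindle gene Hmmr (0.798), the cyclin gene Ccnf (0.796), Crip1 (0.796), the replication factor gene Wdhd1 (0.785), Dennd1c (0.762), Tifab (0.762), Knl1 (0.757) and Tmem229b (0.753). Of these 10, Racgap1, Aspm, Hmmr, Ccnf and Knl1 belong to the wider mitotic list. For the S phase mean they began with Wdhd1 (0.866), the adaptor gene Grap2 (0.852), Crip1 (0.838), Ly86 (0.811), a partner of an immune receptor, and Slc25a24 (0.792). The rest were the kinetochore gene Kntc1 (0.778), the inflammasome sensor gene Naip5 (0.777), the platelet and leukocyte protein gene Plek (0.776), Dennd1c (0.769) and Cd72 (0.769), a B cell surface protein gene. These values describe likeness over 24 mice that share library depth and scaling, and nothing is said of shared function.

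The S phase mean correlated with the T cell marker mean at r = 0.654 and with the fibrosis mean at 0.725, and the mitotic mean at 0.542 and 0.625, whereas with proximal tubule markers the values were -0.391 and -0.301. Summed T cell markers were low, at 7.67 to 13.77 CPM in HET and 7.022 to 12.51 CPM in WT mice of batch 2, and 5.162 to 8.613 CPM in HET and 5.447 to 13.6 CPM in WT mice of batch 1. The part of these cells in the members' values was not tested.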
